A study of Homo sapiens with 12 samples.

Results

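The effect of silencing SHP2 in cells given CPT-11 was read from 6 of the 12 RNA-seq libraries of the series. They are the 3 libraries of SHP2-silenced cells and the 3 libraries of cells given CPT-11 alone, chosen by their titles. All were made from HCT-116, an established human colorectal carcinoma line. The CPT-11 group is labelled wild type and was exposed to CPT-11 (irinotecan, a prodrug of a topoisomerase I poison) for 24 h. The silenced group is labelled SHP2-silenced, and its titles and the treatment protocol give CPT-11 alone as its drug. Its treatment label, however, also names lovastatin for 4 h before 24 h of CPT-11, the treatment of a further group of 3 libraries, and the remaining 3 libraries are untreated cells. The labels name no cells with a control hairpin, no second hairpin and no silenced cells without CPT-11. Delivery of a hairpin and loss of SHP2 therefore cannot be told apart, nor can an effect of SHP2 that needs CPT-11 be told apart from one that does not. The labels do not tell whether the replicates are separate cultures, and the spread that the p-values rest on may thus be technical.

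SHP2, encoded by PTPN11, is a cytoplasmic tyrosine phosphatase that docks on activated receptor tyrosine kinases and their adaptors and helps turn on RAS. RAS then activates the kinases RAF, MEK and ERK, and ERK drives transcription of immediate early genes and of its own brakes, among them dual-specificity phosphatases and Sprouty proteins. In colon epithelial cells the same pathway supports proliferation and can weaken cell-cell junctions, and SHP2 has also been linked to interferon and cytokine signalling.

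PTPN11 (chromosome 12, 112418351 to 112509913 in GRCh38) checked the labels. Its level was 48.2, 50.5 and 43.9 FPKM (reads per gene scaled for gene length and library size) with CPT-11 alone and 6.01, 6.54 and 7.15 FPKM in silenced cells. The groups were far apart, at -2.68 ± 0.07 (adjusted p = 2.6e-09), or -2.74 without CPT-11 replicate 3. This and every difference below is silenced minus CPT-11 on log2(FPKM + 1) ± SE, which understates the change of genes with low FPKM. Each adjusted p is from limma with Benjamini-Hochberg adjustment over 18062 genes, and a gene passed, or was called, when it was under 0.05. HMGCS1, a sterol synthesis gene that statins raise, bore on the treatment label. It measured 24.9, 25.5 and 25.8 FPKM in silenced cells and 29.7, 31.2 and 25.2 FPKM with CPT-11, against 105, 101 and 103 FPKM in the lovastatin group. The silenced libraries overlapped the CPT-11 libraries in this gene and lay far below every lovastatin library.

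Among the CPT-11 libraries, replicate 3 lay near the silenced libraries and away from the rest of its group. Over all tested genes its log2 levels correlated with the 3 silenced libraries at r = 0.990 to 0.991 (Pearson, across genes, which are not independent replicates), against 0.967 to 0.975 for CPT-11 replicates 1 and 2. With GC content of genes, its levels rose by 0.0787 (log2 per 10 points of GC), as the levels of silenced libraries did by 0.0984 to 0.128, whereas those of replicates 1 and 2 went by -0.147 and -0.170. The lovastatin libraries rose too, by 0.0120 to 0.0714, so this likeness was not particular to the silenced group. Its place between the groups was computed for each gene as a measure added after the data were seen. A place of 0 is the mean of CPT-11 replicates 1 and 2, and a place of 1 is the mean of the silenced libraries. Over the 7849 genes called without replicate 3, its median place was 0.751, and for 3939 of them (50.2%) it was at 0.75 or above. Its root mean square difference (log2) from the rest of its group was 0.330, against 0.206 and 0.251 for the other CPT-11 libraries and 0.152 to 0.170 for the silenced ones. The 6 libraries held 14447847 to 16200993 reads assigned to genes, replicate 3 being the deepest. The part of depth was not tested. Results are given with and without replicate 3.

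**Figure D1:**
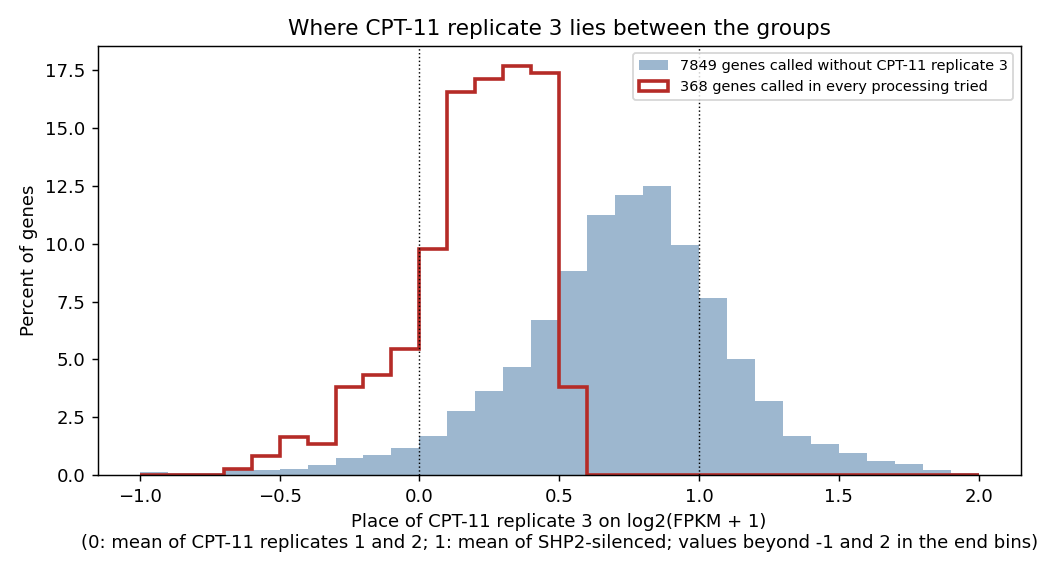
Histogram of the place of CPT-11 replicate 3 on the log2(FPKM + 1) scale (horizontal axis; 0 is the mean of CPT-11 replicates 1 and 2, 1 the mean of the silenced libraries) against percent of genes (vertical axis). The 7849 genes called without the library (filled) centre on 0.751, near the silenced libraries, and the 368 genes called in every processing tried (outline) centre on 0.240, in part because they were selected with the library in most fits.

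Of the 18062 genes tested, 3974 (22.0%) passed: 1807 were higher (10%) and 2167 lower (12%) in silenced cells. The median difference over all genes was 0.005. Scaled to library totals instead of the deposited scaling, 2363 rose and 1637 fell. Most differences were small: 74 genes rose at least 2-fold (0.410%) and 19 fell at least 2-fold (0.105%). Without CPT-11 replicate 3, 7849 genes passed (43.5%), 3897 higher (21.6%) and 3952 lower (21.9%), of which 218 (1.21%) and 57 (0.316%) by at least 2-fold. Each list count below stands beside these shares of all genes: 10% higher and 12% lower with all libraries. For counts without CPT-11 replicate 3 the shares are 21.6% and 21.9%. A count near its share is no result about the list. With only these 6 libraries in the fit, 451 passed (2.50%), 183 higher (1.01%) and 268 lower (1.48%). A set of 368 genes (2.04%) passed with the same sign with all libraries and in each of the 17 alternative processings that tested them, 116 higher (0.642%) and 252 lower (1.40%). These are called genes that passed in every processing below, a set defined after the data were seen. PTPN11 is among them. A called gene that is named below without this statement lost the call in at least 1 processing. In the 368, no gene had CPT-11 replicate 3 at a place of 0.75 or above, which the selection partly fixes.

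Many genes under ERK control fell. Of 29 tested ERK feedback genes and transcriptional targets, 14 fell (48.3%, where 12% of all genes did) and 5 rose (17.2%, where 10% did), with a median of -0.25. The count without CPT-11 replicate 3 was 14 lower and 7 higher, and 10 lower and 1 higher passed in every processing. The fallers include negative regulators of the pathway, the ERK phosphatases DUSP6 and DUSP4, and SPRY4 and the SPRED proteins. They also include the ETS factors ETV1 and ETV5, and the cyclin that carries cells into the division cycle, CCND1. The 10 fallers that passed in every processing were DUSP6, DUSP4, ETV1, ETV5, SPRY4, PHLDA1, CCND1, CXCL8, ELK3 and PLAUR. In bulk RNA such as this, fewer cells with a transcript and less of it per cell cannot be told apart.

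DUSP6, the phosphatase that removes the activating phosphates of ERK, measured 49.8, 50.3 and 40.1 FPKM with CPT-11 and 22.0, 21.2 and 20.3 FPKM in silenced cells. The groups did not overlap, which was so for 35.8% of all tested genes, and DUSP6 fell by 1.10 on the log2 scale (SE 0.08, adjusted p = 2.9e-05). Untreated cells, at 48.5, 50.0 and 51.7 FPKM, were as high as the CPT-11 libraries. ETV5, an ETS transcription factor, measured 16.1, 16.4 and 16.5 FPKM with CPT-11 and 10.2, 10.5 and 10.9 FPKM in silenced cells (-0.59 ± 0.05, adjusted p = 0.00012). Its 3 CPT-11 libraries were close to each other, and all lay above the silenced ones. ETV1, of the same subfamily, measured 6.64, 6.58 and 5.88 FPKM against 3.32, 3.33 and 2.99 FPKM (-0.81 ± 0.07, adjusted p = 7.4e-05). The silenced libraries were the lowest in the series, since untreated cells stood at 8.50 to 9.43 FPKM. SPRY4, an inhibitor of receptor signalling upstream of RAS, measured 15.4, 17.1 and 17.9 FPKM against 11.5, 10.8 and 10.6 FPKM (-0.57 ± 0.06, adjusted p = 0.0003). PHLDA1, an ERK-induced gene, went from 39.1, 37.9 and 39.4 FPKM to 28.5, 27.5 and 26.2 FPKM (-0.49 ± 0.04, adjusted p = 0.00011). Neither SPRY4 nor PHLDA1 had overlapping groups.

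CCND1, which encodes cyclin D1, measured 218, 223 and 227 FPKM with CPT-11 and 161, 167 and 174 FPKM in silenced cells (-0.41 ± 0.05, adjusted p = 0.00056). CPT-11 libraries were above untreated ones (180 to 184 FPKM), and silenced libraries were below them. MYC went the other way: this growth-promoting factor measured 74.6, 75.3 and 80.1 FPKM with CPT-11 and 120, 121 and 121 FPKM in silenced cells (0.65 ± 0.05, adjusted p = 7.4e-05). It was the riser of this list that passed in every processing, and its silenced libraries were also above the untreated ones (92.1 to 104 FPKM). The other risers were DUSP5, UPP1, SPRY1 and SPHK1, named for their count after their values were seen. ETV4, close kin of ETV5, measured 13.2, 12.9 and 16.9 FPKM against 15.3, 14.6 and 12.7 FPKM (-0.01 ± 0.11, adjusted p = 0.97). FOSL1, an AP-1 subunit, measured 57.8, 50.5 and 73.9 FPKM against 64.2, 65.5 and 63.3 FPKM (0.10 ± 0.12, adjusted p = 0.56). In both genes CPT-11 replicate 3 was the highest of these 6 libraries and the groups overlapped. Among 26 immediate early and AP-1 genes, 8 rose and 5 fell (13 and 5 without CPT-11 replicate 3). EGR1, an early ERK-induced factor, did not pass, at 17.8, 17.1 and 22.3 FPKM against 23.9, 23.8 and 16.7 FPKM (0.15 ± 0.13, adjusted p = 0.42). Of that list, ATF3 rose (0.42) and KLF10, BTG2 and CTGF fell (-0.39, -0.37 and -0.57) in every processing.

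**Figure D2:**
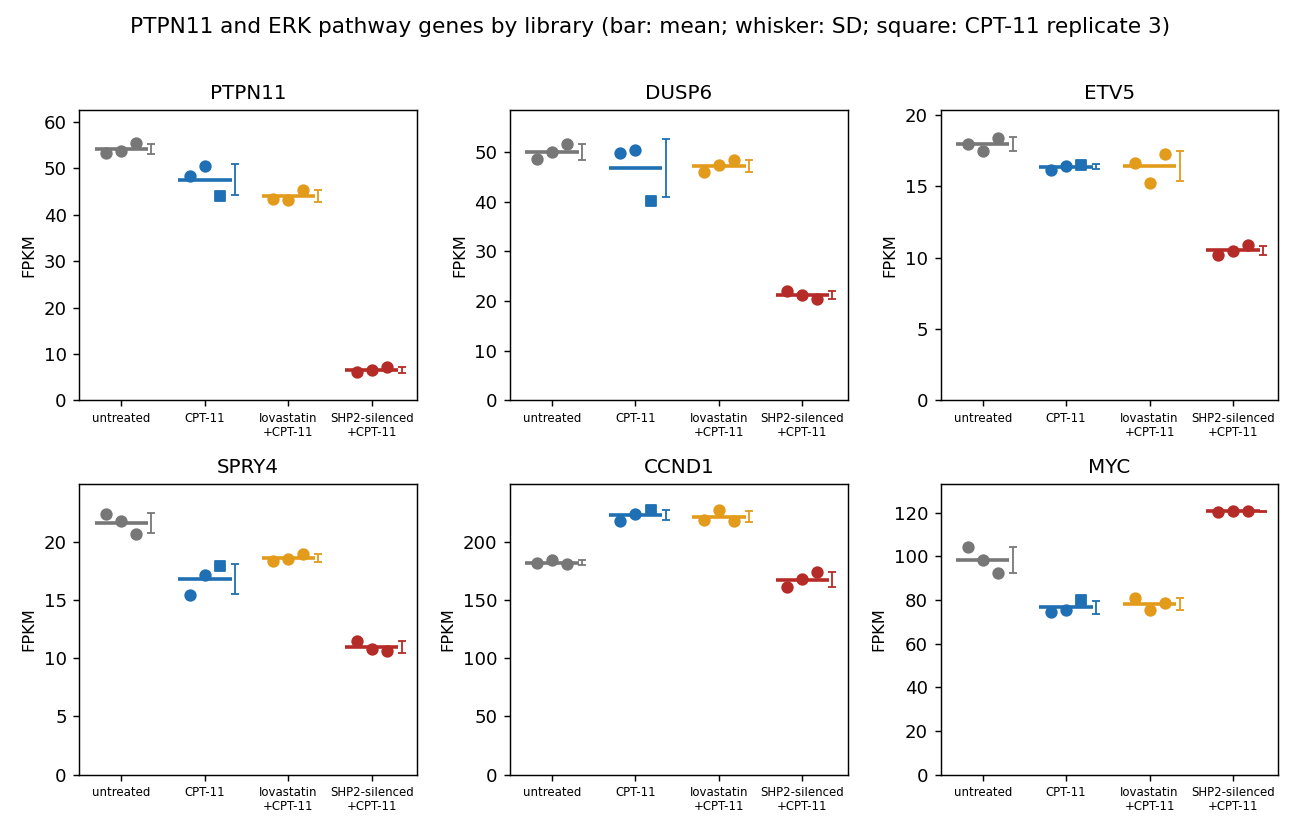
FPKM per library (vertical axes, from 0) of PTPN11, DUSP6, ETV5, SPRY4, CCND1 and MYC in the 4 groups of 3 libraries (horizontal axes); lines are means, whiskers SD, and the square is CPT-11 replicate 3. The 3 silenced libraries lie below all CPT-11 libraries in the first 5 genes and above them in MYC.

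Upstream of ERK, 7 of 29 tested SHP2 adaptors and RAS-ERK components fell and 1 rose (12 and 8 without CPT-11 replicate 3). NRAS, which encodes a RAS protein, measured 31.94, 33.97 and 25.14 FPKM with CPT-11 and 17.3, 19.2 and 20.7 FPKM in silenced cells (-0.64 ± 0.10, adjusted p = 0.0033). CPT-11 replicate 3 was the lowest of its group and still above every silenced library. The ERK-activated kinase RPS6KA3 (-0.62) and the ubiquitin ligase CBL (-0.42), which marks active receptors for degradation, also fell in every processing, as NRAS did. The riser was the insulin receptor substrate IRS1 (0.41), named after its value was seen.

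Receptors and their ligands divided. Of 32 tested receptor tyrosine kinases and ligands, 5 rose (15.6%) and 8 fell (25%). The counts were 13 and 9 without CPT-11 replicate 3, and 11 and 8 with voom on recovered reads. The members that passed in every processing were all ligands: FGF9, EREG and TGFA. FGF9, a fibroblast growth factor, measured 2.92, 2.66 and 2.02 FPKM with CPT-11 and 0.475, 0.496 and 0.790 FPKM in silenced cells (-1.15 ± 0.11, adjusted p = 0.00018). EREG, the EGF receptor ligand epiregulin, measured 107, 105 and 87.3 FPKM against 62.9, 65.1 and 68.1 FPKM (-0.60 ± 0.08, adjusted p = 0.00098). Untreated cells held more EREG than either group, at 123 to 138 FPKM. TGFA, another ligand of that receptor, measured 23.6, 23.3 and 23.4 FPKM against 17.3, 16.6 and 17.3 FPKM (-0.43 ± 0.05, adjusted p = 0.00048). Here the silenced libraries lay between the CPT-11 libraries and the untreated ones, which stood at 13.3 to 14.6 FPKM. EGFR itself fell with all libraries, from 14.5, 14.9 and 13.0 FPKM to 11.8, 12.2 and 10.1 FPKM (-0.29 ± 0.08, adjusted p = 0.027), and did not pass with only these 6 libraries (adjusted p = 0.098). ERBB3, its partner receptor, measured 4.16, 5.14 and 4.56 FPKM against 5.25, 5.23 and 5.43 FPKM (0.17 ± 0.08, adjusted p = 0.16).

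Epithelial junction genes rose. Of 28 tested, 14 rose (50.0%) and 4 fell (14.3%), with a median of 0.20. Without CPT-11 replicate 3 the count was 15 higher and 5 lower, and the members that passed in every processing, 6 in all, were all higher. They were CDH1, CLDN7, TJP3, JUP, ST14 and GRHL2. CDH1, E-cadherin, measured 8.42, 8.79 and 7.61 FPKM with CPT-11 and 13.98, 13.87 and 12.77 FPKM in silenced cells (0.65 ± 0.07, adjusted p = 0.00036). CPT-11 replicate 3 was the lowest of the 6, farther from the silenced libraries than the rest of its group. CLDN7, a claudin of tight and lateral junctions, measured 17.66, 16.60 and 26.99 FPKM against 46.3, 44.7 and 42.9 FPKM (1.12 ± 0.15, adjusted p = 0.0012). ST14, the membrane protease matriptase, measured 23.3, 21.8 and 31.4 FPKM against 47.0, 44.5 and 44.4 FPKM (0.82 ± 0.11, adjusted p = 0.0016). In CLDN7 and ST14, replicate 3 lay partway to the silenced libraries without reaching them. TJP3, a scaffold of tight junctions, measured 7.42, 6.46 and 8.21 FPKM against 14.1, 12.6 and 10.8 FPKM (0.69 ± 0.09, adjusted p = 0.0014). GRHL2, a factor that sustains epithelial genes, and JUP, a junction protein of the catenin family, rose by 0.77 and 0.44. The 4 that fell were the desmosomal cadherins DSG2 and DSC2, CLDN12 and TJP1, and none of them passed with only these 6 libraries.

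Most called members of the mesenchymal and matrix list fell. The matrix gene COL1A1, counted below among markers of other cell types, rose with all libraries. Of 26 tested switch factors, integrins and matrix genes, 12 fell (46.2%) and 1 rose (3.85%), with a median of -0.21 (13 and 4 without CPT-11 replicate 3). ZEB1, a repressor of epithelial genes, measured 2.03, 1.78 and 1.40 FPKM with CPT-11 and 0.446, 0.589 and 0.543 FPKM in silenced cells (-0.84 ± 0.09, adjusted p = 0.0004). VIM, the mesenchymal filament protein vimentin, measured 1.51, 1.39 and 1.41 FPKM against 0.329, 0.195 and 0.228 FPKM (-0.96 ± 0.08, adjusted p = 7.4e-05). Both were low in every library of the series, at most 2.33 and 2.71 FPKM in untreated cells, and neither had overlapping groups. The integrin ITGA6 (-0.61) fell too, and with ZEB1 and VIM it passed in every processing. The riser of the list was LAMB3, a laminin chain of the epithelial basement membrane, which passed in every processing. It measured 21.0, 21.0 and 25.6 FPKM against 34.4, 34.9 and 32.8 FPKM (0.58 ± 0.08, adjusted p = 0.0018).

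**Figure D3:**
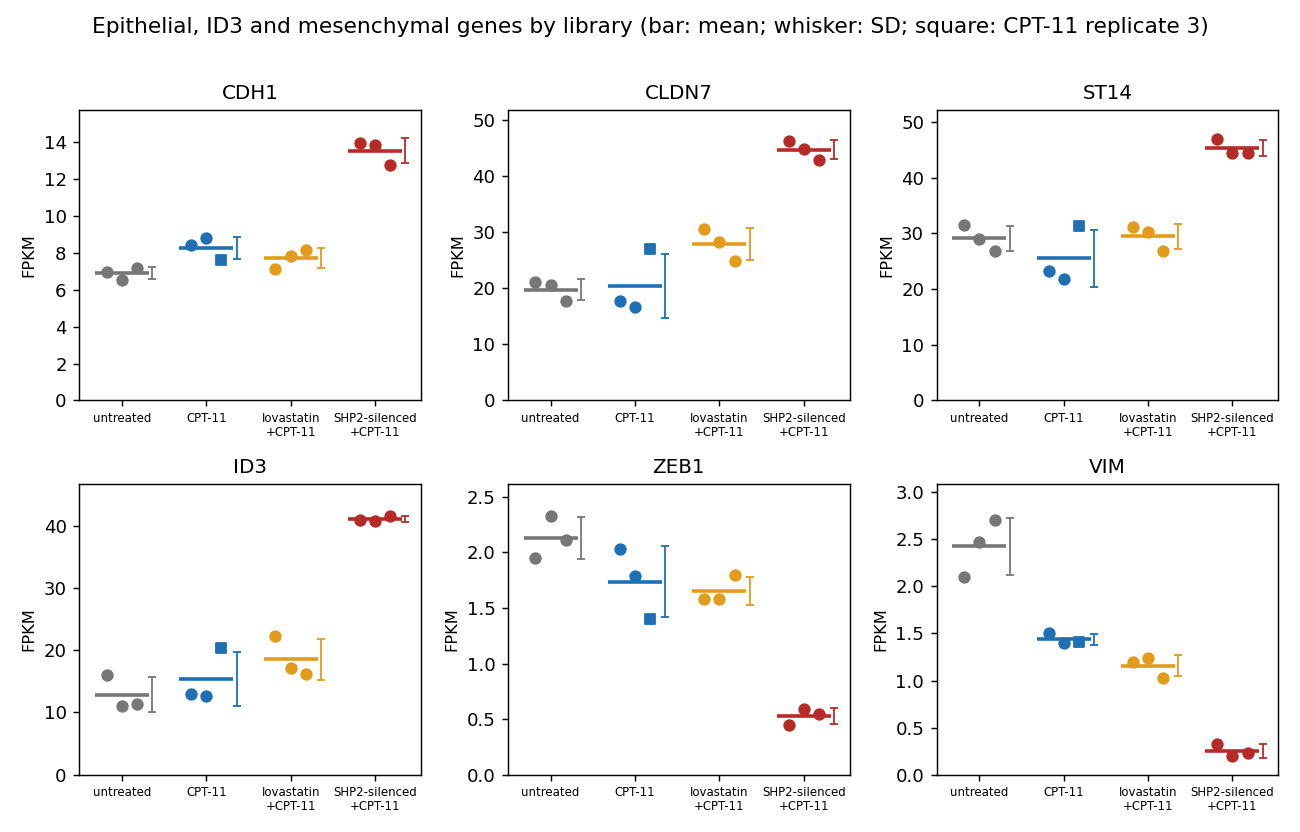
FPKM per library (vertical axes, from 0) of CDH1, CLDN7, ST14, ID3, ZEB1 and VIM in the 4 groups of 3 libraries (horizontal axes); lines are means, whiskers SD, and the square is CPT-11 replicate 3. The silenced libraries lie above all others in the first 4 genes and below all others in ZEB1 and VIM.

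The bases before the starts of these genes were searched for the E-box CACCTG, the form that ZEB1 and its relatives bind, on both strands (its reverse complement is CAGGTG). RefSeq windows of 250 bases before the start were at hand for 5 of the 14 junction genes that rose. The motif was in 3 of their 8 windows, against 17.5% of all 35116 windows. Matches lay in CLDN7, JUP and TJP3, and a match is a description, not a site. All 3 genes rose in every processing, and TJP3 is not shown. CLDN7 and JUP had 2 windows each, of which the one with more matches was chosen, the other having none. The chosen windows of CLDN7 (chr17:7262479-7262728, minus strand) and JUP (chr17:41785977-41786226, minus strand) are given 5′ to 3′ in GRCh38.p14, with the motif in capitals.
CLDN7: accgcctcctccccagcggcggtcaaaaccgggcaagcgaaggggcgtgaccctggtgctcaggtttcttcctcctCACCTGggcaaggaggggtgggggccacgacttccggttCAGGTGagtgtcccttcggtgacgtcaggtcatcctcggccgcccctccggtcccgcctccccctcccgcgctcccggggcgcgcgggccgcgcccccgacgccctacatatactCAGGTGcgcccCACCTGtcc
JUP: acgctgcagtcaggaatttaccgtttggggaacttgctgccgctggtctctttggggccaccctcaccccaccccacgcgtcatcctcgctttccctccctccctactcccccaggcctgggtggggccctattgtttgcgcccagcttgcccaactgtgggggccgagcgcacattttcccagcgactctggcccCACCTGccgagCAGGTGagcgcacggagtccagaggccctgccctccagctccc
CLDN7 held 4 matches and JUP 2 in these windows, which end at the base before the start.

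The same search with the AP-1 motif TGANTCA covered 16 windows of 9 of the 14 ERK targets that fell. It found the motif in 2 of these windows, those of CXCL8 and PLAUR, against 6.57% of all windows. The window of CXCL8 (chr4:73740319-73740568, plus strand) is given as 1 of the 2 with the motif, which is in capitals. CXCL8 had the second largest fall of that list, after DUSP6, and PLAUR is not shown.
CXCL8: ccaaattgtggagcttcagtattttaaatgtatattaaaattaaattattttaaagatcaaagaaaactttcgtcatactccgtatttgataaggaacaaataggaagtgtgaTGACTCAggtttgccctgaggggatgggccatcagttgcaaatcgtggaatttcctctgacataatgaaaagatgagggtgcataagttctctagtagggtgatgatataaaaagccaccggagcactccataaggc
CXCL8, the chemokine interleukin-8, measured 5.59, 5.34 and 4.12 FPKM with CPT-11 and 2.07, 2.19 and 1.88 FPKM in silenced cells (-0.98 ± 0.13, adjusted p = 0.0011). Silenced libraries were thus below the untreated ones, at 2.40 to 3.61 FPKM, and below all CPT-11 libraries. Of 22 tested NF-kB targets, chemokines and cytokines, CXCL8 included, 4 rose and 3 fell (7 and 4 without CPT-11 replicate 3, and 3 and 3 after correction for GC content and gene length). IL32, a cytokine of epithelial and lymphoid cells, rose from 0.673, 0.998 and 1.17 FPKM to 3.32, 3.80 and 3.45 FPKM (1.22 ± 0.11, adjusted p = 0.00012). CXCL16, a membrane-bound chemokine, rose from 14.9, 16.4 and 17.9 FPKM to 25.7, 24.8 and 26.1 FPKM (0.61 ± 0.08, adjusted p = 0.0014). CXCL8, IL32 and CXCL16 passed in every processing and had no overlap between groups.

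BMP and TGF-beta genes included one of the largest rises. Of 19 tested targets and components, 7 rose (36.8%) and 4 fell (21.1%), or 8 and 5 without CPT-11 replicate 3. ID3, an inhibitor of differentiation factors and a BMP target, measured 12.9, 12.7 and 20.3 FPKM with CPT-11 and 40.9, 40.7 and 41.6 FPKM in silenced cells (1.40 ± 0.18, adjusted p = 0.0011). No other group came near, the highest other library being a lovastatin one at 22.3 FPKM. SMAD7, an inhibitor of TGF-beta receptors, measured 0.687, 0.818 and 1.12 FPKM against 2.17, 2.31 and 2.47 FPKM (0.83 ± 0.11, adjusted p = 0.0015). BAMBI, a decoy receptor of the same family, measured 4.37, 4.52 and 5.07 FPKM against 7.88, 7.40 and 7.67 FPKM (0.62 ± 0.08, adjusted p = 0.0014). Both had separate groups, and with ID3 and the ligand BMP4 (0.51) they passed in every processing. SKIL, TGFBR1 and TGIF1 were among those that fell.

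Falls were ranked among protein-coding genes other than PTPN11 with at least 5 FPKM in the higher group. The 12 largest falls were ADAM19, EHF, VCAN, SLC16A6, DUSP6, GPAT3, CYP24A1, NT5E, XRCC4, ANO1, CXCL8 and ANLN. All 12 passed in every processing. ADAM19, a membrane metalloprotease, measured 21.3, 21.6 and 22.8 FPKM with CPT-11 and 8.79, 8.55 and 7.24 FPKM in silenced cells (-1.32 ± 0.07, adjusted p = 4.9e-06). EHF, an ETS factor of epithelia, measured 7.37, 7.88 and 6.89 FPKM against 2.64, 2.74 and 2.75 FPKM (-1.17 ± 0.07, adjusted p = 1.0e-05). It had stood at 4.43 to 5.06 FPKM in untreated cells, between the groups. VCAN, the matrix proteoglycan versican, measured 34.6, 35.7 and 25.4 FPKM against 13.3, 13.8 and 14.1 FPKM (-1.14 ± 0.12, adjusted p = 0.00029). XRCC4, a scaffold of end joining, measured 22.0, 22.6 and 15.2 FPKM against 9.16, 10.03 and 8.85 FPKM (-0.998 ± 0.14, adjusted p = 0.0014). XRCC4 and VCAN lie near each other on chromosome 5 (83077498 to 83353787 and 83471465 to 83582303), and in both CPT-11 replicate 3 was the lowest of its group. NT5E, the ecto-enzyme CD73 that makes adenosine, measured 32.04, 31.11 and 26.19 FPKM against 14.21, 14.96 and 13.73 FPKM (-1.004 ± 0.08, adjusted p = 4.8e-05). CYP24A1, which inactivates vitamin D, measured 7.37, 8.37 and 7.58 FPKM against 3.36, 3.31 and 3.43 FPKM (-1.01 ± 0.07, adjusted p = 2.1e-05).

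The monocarboxylate transporter family member SLC16A6 (-1.13), the glycerolipid acyltransferase GPAT3 (-1.05), the chloride channel ANO1 (-0.98) and the cytokinesis protein ANLN (-0.95) complete the falls. NRP1, a co-receptor of semaphorins and VEGF below the 5 FPKM limit and named after its values were seen, measured 3.22, 2.91 and 2.59 FPKM against 0.822, 0.643 and 0.843 FPKM (-1.14 ± 0.08, adjusted p = 3.7e-05). WWTR1, the YAP relative TAZ, also named after its values were seen, measured 15.4, 15.3 and 13.0 FPKM against 7.68, 7.62 and 7.69 FPKM (-0.84 ± 0.07, adjusted p = 5.3e-05). NRP1 and WWTR1 passed in every processing. Of 21 tested YAP and TAZ targets, which include NT5E, 6 fell (28.6%) and 2 rose (9.52%). The counts were 7 and 5 without CPT-11 replicate 3, and NT5E and CTGF fell in every processing. CTGF, a matricellular growth factor, measured 2.80, 3.30 and 3.31 FPKM against 1.93, 1.67 and 1.72 FPKM (-0.57 ± 0.10, adjusted p = 0.0055).

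The 12 largest rises under the same rule split by CPT-11 replicate 3. MAGEB1, ID3, LCE1F and PROM2 passed in every processing. MAGEB1, a cancer-testis antigen, measured 1.25, 0.796 and 1.14 FPKM with CPT-11 and 4.94, 5.87 and 5.28 FPKM in silenced cells (1.63 ± 0.10, adjusted p = 1.2e-05). PROM2, the epithelial protein prominin-2, measured 1.63, 2.10 and 2.27 FPKM against 6.51, 6.80 and 5.73 FPKM (1.30 ± 0.10, adjusted p = 6.1e-05). LCE1F, a protein of the cornified envelope of skin, measured 2.07, 2.56 and 3.72 FPKM against 9.33, 7.30 and 9.53 FPKM (1.38 ± 0.19, adjusted p = 0.0015). PROM2 stood at most at 0.308 FPKM in untreated cells, and LCE1F is listed at 0 there, so that both were above untreated cells with CPT-11 and higher again in silenced cells. The other rises were TMEM238, MRPL12, RAC3, TMEM141, TMEM160, TCTEX1D4, SRXN1 and JOSD2, and none of these 8 passed with only the 6 libraries. RAC3, a small GTPase, is an example: it measured 22.7, 22.8 and 54.1 FPKM against 77.8, 78.0 and 83.4 FPKM (1.36 ± 0.27, adjusted p = 0.0095, or 1.76 without CPT-11 replicate 3). Across these 8 genes replicate 3 lay at a place of 0.69 (RAC3) to 0.94 (TMEM238). In RAC3 the lovastatin libraries, at 48.0 to 52.7 FPKM, were nearer to replicate 3 than the silenced libraries were.

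The next 5 genes were picked because their values rose, and stand for no group. S100A14, a calcium-binding protein of epithelia, measured 63.7, 64.0 and 63.6 FPKM with CPT-11 and 146, 135 and 138 FPKM in silenced cells (1.12 ± 0.06, adjusted p = 4.9e-06). MAL2, a protein of apical sorting, measured 26.6, 27.4 and 24.4 FPKM against 56.5, 57.0 and 52.8 FPKM (1.06 ± 0.06, adjusted p = 5.4e-06). AP1M2, an epithelial adaptor subunit for sorting to the basolateral side, measured 18.8, 18.1 and 19.9 FPKM against 41.6, 43.0 and 46.0 FPKM (1.16 ± 0.06, adjusted p = 4.9e-06). In each of these 3 genes, CPT-11 replicate 3 stayed with its own group. The epithelial factor OVOL1 (0.87) and the keratin KRT7 (0.76) rose too, and all 5 genes passed in every processing. In the colon identity list, of 17 tested members, 5 rose and 1 fell (7 and 2 without CPT-11 replicate 3), and of these CDH1 alone passed in every processing. EPCAM, the pan-epithelial surface marker, measured 68.5, 72.4 and 63.3 FPKM against 81.0, 85.3 and 87.8 FPKM (0.31 ± 0.06, adjusted p = 0.0058).

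The labelled cell type was checked on 11 colon epithelial markers. In the 6 libraries KRT8 ranged from 264 to 317 FPKM, KRT19 from 452 to 578 FPKM and CDX2 from 3.79 to 5.88 FPKM. CDX1 was at 0 in all 6 libraries, and VIL1 and LGALS4 were at or near 0 (at most 0.112 FPKM). KRT20 (1.12 to 1.49 FPKM) and CDH17 (0.0456 to 0.232 FPKM) were low as well. The summed level of the 11 markers was 966 to 1128 FPKM with CPT-11 and 1105 to 1134 FPKM in silenced cells. The keratins KRT8, KRT18 (162 to 184 FPKM) and KRT19 made up most of this sum, so it says little on colon identity. Of 16 markers of fibroblasts, endothelium and blood cells, 5 passed the filter on low values and 2 rose, COL1A1 (0.37) and PDGFRB (0.13), neither with only these 6 libraries nor after correction for GC content and gene length. The 16 markers' summed level was 6.62 to 8.69 FPKM with CPT-11 and 8.98 to 10.4 FPKM in silenced cells. CD3E, LUM and HBB were at 0 in all CPT-11 libraries, and LUM, CD3E and HBB were at most 0.0474 FPKM in all 6. PTPRC and PECAM1, defining markers of blood cells and endothelium, were at most 0.0527 and 0.0701 FPKM. COL1A1 (3.43 to 5.89 FPKM) and ACTA2 (2.36 to 2.92 FPKM) made up most of the sum.

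The cGAS-STING pathway, in which cGAS senses cytosolic DNA and STING (TMEM173) signals through TBK1 and IRF3 to interferon, gave few calls. Of 22 tested members, 1 rose (4.55%) and 3 fell (13.6%), with a median of 0.01, near the background of all genes. Without CPT-11 replicate 3 it was 5 and 6, where 21.6% of all genes rose and 21.9% fell. None passed with only these 6 libraries or in every processing. TMEM173 measured 8.69, 7.60 and 10.4 FPKM with CPT-11 and 11.1, 11.7 and 11.6 FPKM in silenced cells (0.34 ± 0.09, adjusted p = 0.025). CPT-11 replicate 3 lay at a place of 0.71, and untreated cells were lower than both groups, at 4.05 to 4.50 FPKM. The lovastatin libraries, at 10.1 to 11.2 FPKM, were near the silenced ones. TBK1 measured 18.4, 18.8 and 12.8 FPKM against 10.50, 11.92 and 12.01 FPKM (-0.49 ± 0.14, adjusted p = 0.03), replicate 3 lying nearer to the silenced libraries. The other 2 that fell were the RNA sensor DDX58 (-0.47) and the nucleotide hydrolase SAMHD1 (-0.24). IRF3 did not pass, at 11.7, 11.1 and 14.8 FPKM against 14.76, 14.96 and 14.25 FPKM (0.22 ± 0.10, adjusted p = 0.11). CGAS had 0 to 5 reads and IFNB1, the interferon at the end of the pathway, 0 to 9 reads in each of the 12 libraries, too few to test.

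Of 36 tested interferon-stimulated genes, 5 rose and 5 fell (13.9% each), with a median of -0.05 (7 and 10 without CPT-11 replicate 3). These shares were near those over all genes, 10% higher and 12% lower. The fallers were IFIT1, IFIT2, IFIT3, HERC5 and DDX60, of which the IFIT genes are antiviral RNA-binding proteins encoded close together on chromosome 10. IFIT2 measured 15.2, 16.7 and 13.4 FPKM with CPT-11 and 9.53, 9.91 and 10.98 FPKM in silenced cells (-0.53 ± 0.09, adjusted p = 0.0053). IFIT3 measured 13.6, 15.3 and 10.5 FPKM against 7.99, 7.99 and 8.65 FPKM (-0.60 ± 0.11, adjusted p = 0.0068). IFIT1 measured 15.8, 17.0 and 14.8 FPKM against 11.20, 12.03 and 13.15 FPKM (-0.36 ± 0.07, adjusted p = 0.0061). In all 3 genes, CPT-11 replicate 3 was the lowest of its group, above the highest silenced library. Untreated cells had 9.32 to 11.5 FPKM of IFIT2, 7.30 to 8.54 of IFIT3 and 10.9 to 11.5 of IFIT1, close to the silenced libraries.

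The risers were IFI6, BST2, LGALS3BP, IFITM3 and UBE2L6, of which UBE2L6, the enzyme that passes ISG15 to its targets, passed in every processing (0.44 ± 0.08, adjusted p = 0.0076). It measured 11.2, 11.6 and 12.3 FPKM against 15.4, 16.3 and 17.0 FPKM. IFIT2 was the faller of the list that did so. ISG15 itself measured 244, 240 and 381 FPKM against 379, 395 and 371 FPKM (0.44 ± 0.17, adjusted p = 0.078), and passed without CPT-11 replicate 3 (0.65, adjusted p = 0.0013). The chemokines CXCL10 and CCL5, classic outputs of the pathway, did not pass. CXCL10 measured 1.36, 1.28 and 1.54 FPKM against 0.722, 1.66 and 1.84 FPKM (-0.02 ± 0.18, adjusted p = 0.93), and CCL5 2.16, 1.69 and 1.56 FPKM against 1.34, 1.25 and 1.39 FPKM (-0.26 ± 0.14, adjusted p = 0.2).

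**Figure D4:**
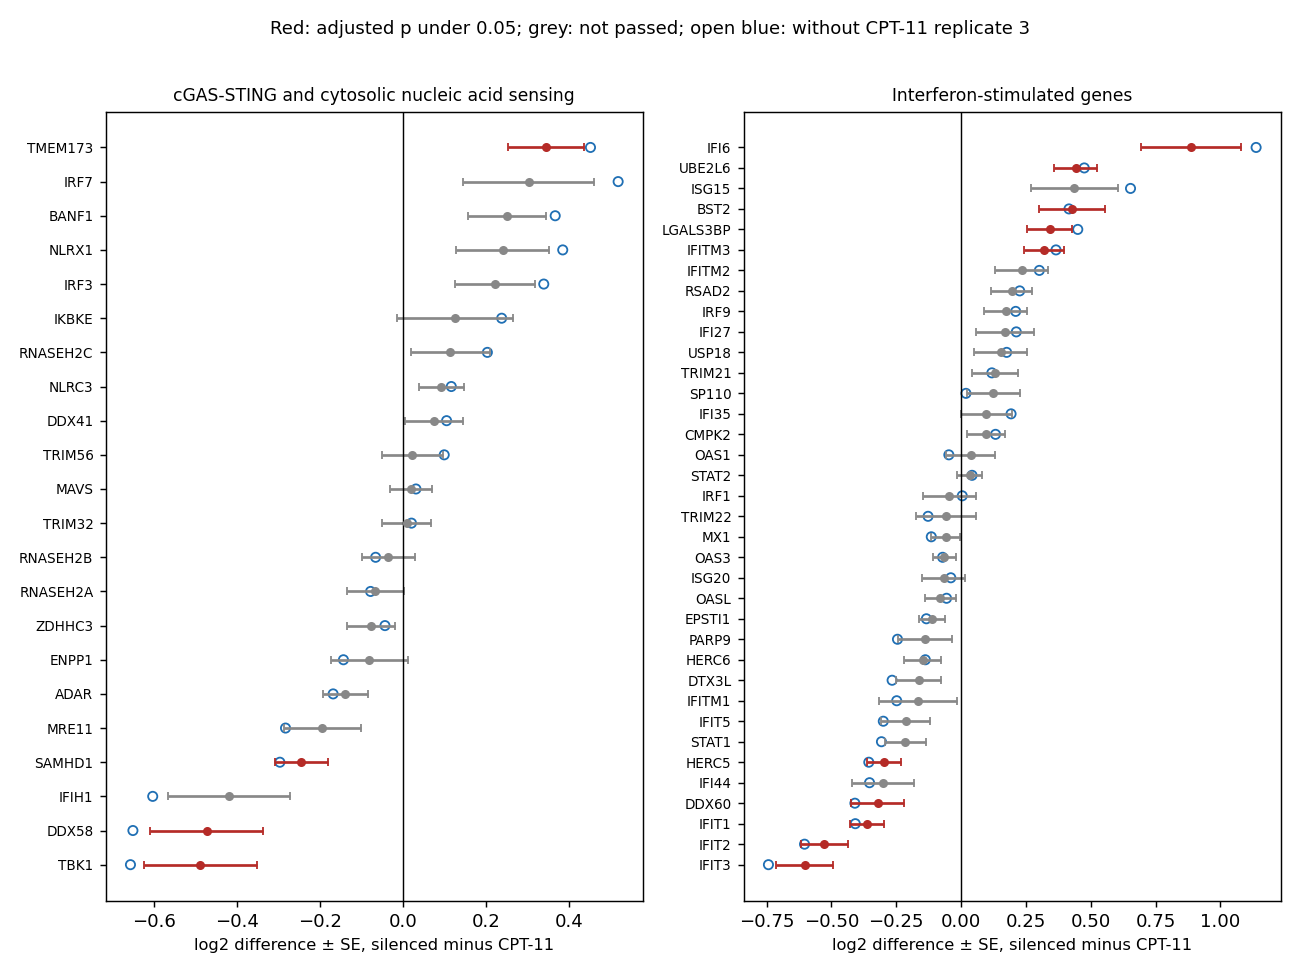
Log2 difference (silenced minus CPT-11, log2(FPKM + 1) scale, horizontal axes) of each tested member of the cGAS-STING list (left) and of the interferon-stimulated list (right); filled points with SE use all libraries, red where adjusted p was under 0.05, and open points leave out CPT-11 replicate 3. Red points number 4 on the left and 10 on the right, and lie on both sides of 0.

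Several cytokine receptors and immune ligands fell. Of 25 tested JAK-STAT genes, 8 fell (32%, where 12% of all genes did) and none rose (11 and 3 without CPT-11 replicate 3). The interleukin-13 receptor chain IL13RA1 measured 11.5, 11.6 and 9.38 FPKM against 5.99, 5.99 and 6.14 FPKM (-0.74 ± 0.08, adjusted p = 0.00034). The oncostatin M receptor OSMR measured 16.2, 16.0 and 13.4 FPKM against 10.3, 9.88 and 10.1 FPKM (-0.54 ± 0.07, adjusted p = 0.0015). These 2 receptors passed in every processing, and JAK1 (-0.34) and the interferon gamma receptor chain IFNGR2 (-0.32) with all libraries. Of 28 tested genes of antigen presentation and immune ligands, 8 fell (28.6%) and 1, NECTIN4, rose (3.57%). The counts were 11 and 8 without CPT-11 replicate 3, and none passed with only these 6 libraries. MICB, a stress ligand for natural killer cells, measured 28.5, 28.9 and 28.1 FPKM against 21.5, 22.4 and 24.6 FPKM (-0.31 ± 0.06, adjusted p = 0.0058), with untreated cells at 22.3 to 23.7 FPKM. CD274, the checkpoint ligand PD-L1, measured 1.91, 1.78 and 1.51 FPKM against 1.07, 1.10 and 0.798 FPKM (-0.46 ± 0.10, adjusted p = 0.012). Both had separate groups. Silenced libraries lay around the untreated ones in MICB and just below them in CD274 (1.11 to 1.24 FPKM untreated).

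Targets of p53, the factor that CPT-11 damage activates, fell and rose. Of 40 tested, 11 fell (27.5%) and 6 rose (15%), or 17 and 15 without CPT-11 replicate 3. With library totals 8 fell and 8 rose, with voom 7 fell and 10 rose, and after correction for GC content and gene length 6 fell and 6 rose. The members that passed in every processing, ZMAT3, TP53INP1, PMAIP1 and BTG2, were all lower. PMAIP1, the BH3-only protein NOXA, measured 97.3, 89.3 and 90.1 FPKM with CPT-11 and 66.9, 67.0 and 66.6 FPKM in silenced cells (-0.46 ± 0.05, adjusted p = 0.00032). TP53INP1, a stress-induced autophagy and death gene, measured 45.9, 41.1 and 41.3 FPKM against 29.8, 30.8 and 31.6 FPKM (-0.46 ± 0.06, adjusted p = 0.00077). ZMAT3, an RNA-binding target of p53, measured 13.9, 14.3 and 11.5 FPKM against 7.83, 7.95 and 7.35 FPKM (-0.70 ± 0.08, adjusted p = 0.00037). Untreated cells were lower than the silenced ones in all 3 genes, at 46.1 to 49.1, 10.8 to 11.4 and 5.44 to 5.62 FPKM. The cell cycle inhibitor CDKN1A did not pass, at 495, 483 and 592 FPKM against 596, 606 and 626 FPKM (0.23 ± 0.08, adjusted p = 0.072). The p53 inhibitor MDM2 did not either, at 67.5, 65.9 and 49.4 FPKM against 46.2, 48.3 and 51.7 FPKM (-0.30 ± 0.11, adjusted p = 0.062). In both, replicate 3 lay with the silenced libraries (places of 0.87 and 0.96), and both passed without it (0.32 and -0.45). Apoptosis and pyroptosis regulators divided, with 9 of 32 lower (28.1%) and 7 higher (21.9%), or 11 and 9 without CPT-11 replicate 3. The caspase inhibitor BIRC3 (-0.77) and PMAIP1 were among the lower and the BH3-only gene BAD (0.53) among the higher.

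Mitotic genes were lower, but CPT-11 replicate 3 was lower with them. Of 36 tested, 19 fell (52.8%) and 1, BIRC5, rose, with a median of -0.26. Without replicate 3 it was 23 and 5, yet with only these 6 libraries no member passed, and none passed in every processing. The median place of replicate 3 over the members called without it was 0.782. MKI67, the proliferation antigen, measured 57.8, 62.0 and 46.2 FPKM against 40.3, 40.8 and 41.2 FPKM (-0.42 ± 0.10, adjusted p = 0.019). CENPF, a kinetochore protein, measured 30.2, 33.6 and 20.7 FPKM against 16.9, 17.9 and 18.1 FPKM (-0.62 ± 0.14, adjusted p = 0.016). Untreated cells had more of both, at 68.3 to 78.9 and 38.1 to 47.1 FPKM. The lovastatin libraries were about as low as the silenced ones, at 34.4 to 41.0 and 17.2 to 19.9 FPKM. The part of CPT-11 replicate 3 in these counts was not tested beyond leaving it out.

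DNA repair and replication lists gave counts that changed with the processing. In homologous recombination and Fanconi repair 9 of 34 fell and 1 rose (17 and 5 without CPT-11 replicate 3). With library totals 4 fell and 3 rose, and after correction for GC content and gene length 3 fell and 1 rose, the median moving from -0.18 to 0.001. RBBP8, which encodes the resection factor CtIP, was the member that passed in every processing, at 23.7, 24.4 and 15.3 FPKM against 10.9, 10.8 and 11.5 FPKM (-0.85 ± 0.14, adjusted p = 0.0044). Replicate 3 was again the lowest of the CPT-11 libraries. Among genes of end joining, base excision and PARP-dependent repair, 5 of 27 fell and 6 rose (11 and 9, and 6 and 4 after the GC correction), and XRCC4 alone passed in every processing. PARP1, the main poly-ADP-ribose polymerase, measured 64.9, 68.9 and 60.5 FPKM against 54.6, 56.0 and 58.3 FPKM (-0.20 ± 0.05, adjusted p = 0.024). In checkpoint signalling 5 of 25 fell and 1 rose (8 and 3, and 2 and 2 with library totals), with none in every processing. Among replication and E2F genes 8 of 40 fell and 3 rose (15 and 10). The balance turned with scaling: 3 fell and 5 rose with library totals, 3 fell and 8 rose with voom, and 4 fell and 4 rose after the GC correction. MCM6, a subunit of the replicative helicase, was the one that passed in every processing, at 21.7, 22.2 and 19.9 FPKM against 29.2, 30.6 and 31.2 FPKM (0.49 ± 0.06, adjusted p = 0.0012). Its silenced libraries lay near the untreated ones, at 32.4 to 37.4 FPKM. Among G1 cyclins, kinases and inhibitors 3 of 21 fell and 2 rose (5 and 7, and 2 and 4 with library totals), CCND1 being the one in every processing.

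TOP1, the topoisomerase that CPT-11 poisons, measured 105, 112 and 84.5 FPKM with CPT-11 and 70.9, 69.7 and 72.0 FPKM in silenced cells (-0.49 ± 0.09, adjusted p = 0.0063). Untreated cells had 101 to 112 FPKM, and CPT-11 replicate 3 lay between the groups at a place of 0.59. The lovastatin libraries, at 76.6 to 83.1 FPKM, were below the CPT-11 libraries as well. Among the 10 tested genes of CPT-11 activation, inactivation and export, 3 fell and 2 rose (3 and 2 without replicate 3). ABCC2, an export pump for conjugated drugs, rose in every processing, from 22.2, 21.6 and 18.6 FPKM to 27.99, 28.74 and 28.996 FPKM (0.44 ± 0.07, adjusted p = 0.004). ABCB1, the P-glycoprotein pump, fell from 1.89, 1.72 and 1.70 FPKM to 1.20, 1.33 and 1.30 FPKM (-0.28 ± 0.07, adjusted p = 0.022), and did not pass with only these 6 libraries.

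Among stress and metabolic genes, a few members passed in every processing, SLC7A11, GCLM and ARRDC4 with the largest changes shown here. SLC7A11, the cystine importer, measured 9.25, 9.06 and 8.76 FPKM with CPT-11 and 4.27, 4.57 and 5.03 FPKM in silenced cells (-0.84 ± 0.07, adjusted p = 5.7e-05). Untreated cells were higher than both groups, at 14.01 to 15.09 FPKM. GCLM, the modifier subunit of glutathione synthesis, measured 14.6, 13.7 and 12.8 FPKM against 8.55, 9.52 and 10.3 FPKM (-0.49 ± 0.07, adjusted p = 0.0027). ARRDC4, an arrestin-related gene that responds to glucose, measured 7.09, 7.24 and 6.42 FPKM against 16.6, 17.1 and 15.2 FPKM (1.13 ± 0.10, adjusted p = 8.2e-05). The silenced libraries had the most ARRDC4 of the series. The counts were 4 lower and 4 higher of 22 NRF2, iron and ferroptosis genes (3 and 8 without CPT-11 replicate 3), and 7 lower and 3 higher of 26 integrated stress and unfolded protein response genes (8 and 6). They were 2 lower and 5 higher of 28 hypoxia and glycolysis genes (3 and 12).

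Genes of sterol synthesis, which lovastatin blocks, and genes of fatty acid synthesis held no member that passed in every processing. Of 30 cholesterol genes 2 fell and 6 rose (6 and 13 without CPT-11 replicate 3), and of 15 fatty acid synthesis genes 1 fell and 2 rose (4 and 5). HMGCS1, the synthase upstream of the statin target, did not pass (-0.16 ± 0.07, adjusted p = 0.11). STARD4, a sterol carrier, fell from 15.6, 15.1 and 12.8 FPKM to 10.9, 10.7 and 10.8 FPKM (-0.39 ± 0.07, adjusted p = 0.0072), against 28.2 to 28.5 FPKM in the lovastatin group. LSS, lanosterol synthase, rose from 9.78, 8.63 and 12.6 FPKM to 14.8, 14.7 and 13.6 FPKM (0.45 ± 0.10, adjusted p = 0.015), against 28.0 to 30.1 FPKM with lovastatin. The silenced libraries were thus below every lovastatin library in both genes.

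Wnt targets and intestinal stem cell genes gave 4 lower (22.2%) and 3 higher (16.7%) of 18, or 5 and 6 without CPT-11 replicate 3. RNF43, a ligase that removes Wnt receptors, measured 5.50, 5.34 and 5.47 FPKM against 3.43, 3.09 and 3.37 FPKM (-0.58 ± 0.07, adjusted p = 0.00061). SOX9, a factor of crypt progenitors, measured 71.1, 71.6 and 73.4 FPKM against 51.3, 49.4 and 47.3 FPKM (-0.54 ± 0.05, adjusted p = 0.00023). Both fell in every processing with no overlap between groups. Of 14 KLF factors 4 fell (28.6%) and 2 rose (14.3%), or 5 and 4 without CPT-11 replicate 3. KLF10 fell in every processing, from 32.4, 32.2 and 29.5 FPKM to 24.2, 23.9 and 22.8 FPKM (-0.39 ± 0.06, adjusted p = 0.0021). KLF4, a factor of differentiated gut epithelium, did not pass, at 7.24, 6.63 and 9.33 FPKM against 9.77, 8.02 and 7.91 FPKM (0.14 ± 0.13, adjusted p = 0.44). Of 13 mitochondrially encoded mRNAs, 1 rose, MT-ND3 (0.59 ± 0.16, adjusted p = 0.025), and none fell (1 and 1 without replicate 3).

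**Figure D5:**
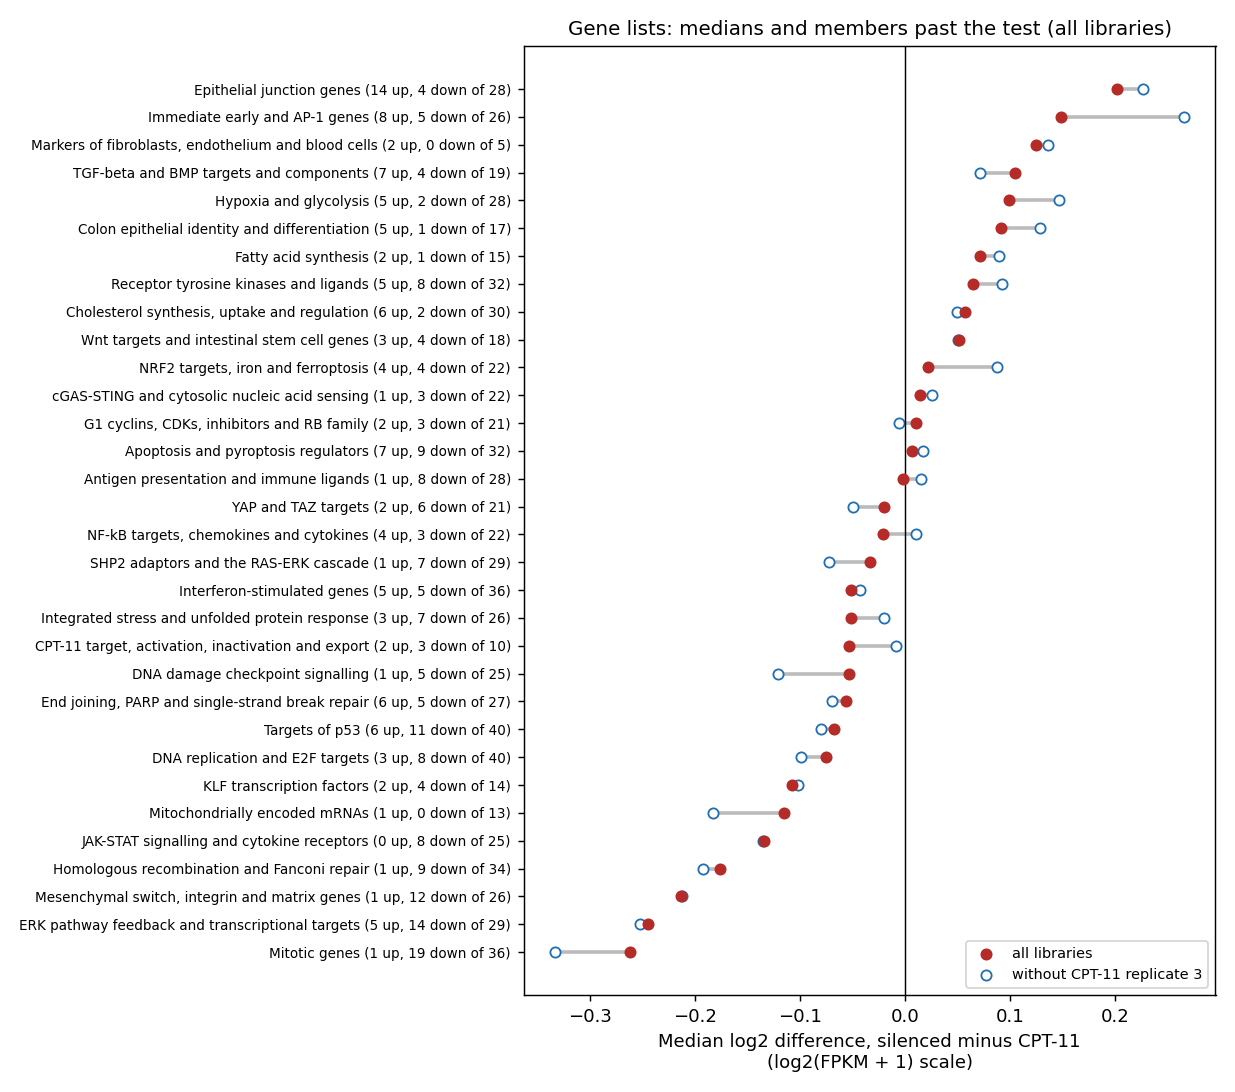
Median log2 difference (silenced minus CPT-11, horizontal axis) of the tested members of each gene list (rows, with the number up, down and tested), with all libraries (filled) and without CPT-11 replicate 3 (open). Epithelial junction genes have the highest median with all libraries (0.20), and mitotic, ERK target and mesenchymal genes the lowest (-0.26, -0.25 and -0.21).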

How the data were processed

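Libraries were prepared from Trizol-extracted total RNA with NEBNext Ultra reagents, per the labels. The authors deposited 1 table of FPKM values for 59172 features. Their processing used featureCounts 1.5.0-p3, StringTie 1.3.3b, HISAT2 2.0.5 and DESeq2 1.16.1 with hg19, per the submitters' processing notes, yet all 58735 Ensembl features carry GENCODE 29 coordinates, so GRCh38 is used here. Settings for strand and multiple mapping were not given in the sources used here: overlapping or near-identical genes and antisense partners cannot be told apart.

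FPKM times gene length gave whole reads for 100% of nonzero values (within 0.01 of a read), and 14447847 to 16224271 reads per library. Kept were genes that reached 10 reads at the depth of the median library in 3 or more libraries, and 15 reads in total. limma 3.58.1 (R 4.3.3) with a variance trend was fitted to log2(FPKM + 1), a pseudocount of 1, with 1 mean per group over 12 libraries, and was tested on simulated data. The deposited scaling makes each change relative to the typical gene.

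The named genes are PTPN11, a fixed set of pathway genes, up to 4 members with the smallest p from each of 32 gene lists, and the 12 largest rises and falls. The latter are protein-coding genes other than PTPN11 with a mean of at least 5 FPKM in the higher group. They passed with and without CPT-11 replicate 3 and had no overlap between groups. Other members of lists, and genes said to be, were named after their values were seen. The comparison and the lists were chosen with earlier results of these data known, so no list is independent evidence. Promoter windows are from RefSeq (GRCh38.p14). The alternatives were leaving out each library, other groupings, filters, pseudocount and scaling, voom, library weights, a replicate block and a loess correction for gene GC content and length. Some genes of the lists are counted but not reported here by name.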

Additional observations from a re-analysis of the deposited data

How the results depend on the processing

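The count of 3974 called genes moved with the processing. Leaving out 1 library each gave 1007 to 7849: 1007 and 1152 without CPT-11 replicates 1 and 2, 7849 without CPT-11 replicate 3, and 1212, 1419 and 1978 without silenced replicates 1, 2 and 3. It was 451 with only these groups, 7756 with only these groups and without CPT-11 replicate 3, 1750 of 41400 features with no filter, and 10798 with library weights. voom on the recovered reads called 4846 genes, 2885 higher and 1961 lower. Correction for GC content and gene length, with CPT-11 replicate 3 left out, called 5404. With the replicate number as a block, 2356 passed. The other settings stayed within 1.5 times of the count with all libraries, but a like count did not mean the same genes. After correction for GC content and gene length with all libraries, 3046 genes passed, of which 2215 were among the 3974 with the same sign. With that correction and CPT-11 replicate 3 left out, 8 of the 3974 were called with the opposite sign. PTPN11 kept its call in all 17 alternatives, at -2.74 to -2.63 when 1 library was left out.

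Deviations from the group means correlated at -0.04, 0.04 and -0.07 for libraries with the same replicate number. With 3 libraries per group, and CPT-11 replicate 3 apart from its group, this cannot tell whether the numbers pair the libraries. With the replicate block, 19 of 144 called genes named by rule or afterwards lost the call. Of those 144, 76 lost it with only these groups and 1, ELOVL6, without CPT-11 replicate 3. The direction of some other lists turned with scaling: among NRF2, iron and ferroptosis genes 7 rose and 3 fell with library totals, and 4 rose and 5 fell after the GC correction. In many lists the more frequent direction among called members was the same with library totals, with voom and after the GC correction. They include ERK targets and junction, mesenchymal, mitotic and JAK-STAT genes. The cholesterol, TGF-beta and BMP, antigen presentation and SHP2 adaptor lists are among the others, so a kept direction sets no list apart.

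Some genes with small differences changed sign, among them PDGFRB and KLF8, which had passed with all libraries. The cause was not tested. When 1 library each was left out, ETV4 ranged from -0.0722 to 0.1085, FOSL1 from -0.0218 to 0.2488 and CXCL10 from -0.1597 to 0.2013. ETV4 was 0.1085 without CPT-11 replicate 3 and with only these groups and without that library, 0.0664 without silenced replicate 3, 0.0362 with library totals, 0.0368 with voom and 0.1067 with library weights. FOSL1 was -0.0218 without CPT-11 replicate 2, -0.1274 after the GC correction and -0.0735 when that replicate 3 was left out too. CXCL10 was 0.0199 without CPT-11 replicate 3 (also with only these groups), 0.2013 without silenced replicate 1, 0.0016 with library totals, 0.0417 with library weights, and 0.0886 and 0.1867 after the GC correction with and without CPT-11 replicate 3. HMGCS1 was 0.0118 and PDGFRB -0.004 after that correction. PDGFRB was -0.055 and KLF8 0.0599 after it without CPT-11 replicate 3. Genes with few reads, such as CGAS and IFNB1, could not be tested at this depth.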

Other observations

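RN7SL2 and RN7SL3, structural RNAs of the signal recognition particle named after their values were seen, were far higher in silenced cells. RN7SL2 measured 37.2, 17.6 and 400 FPKM with CPT-11 and 1470, 1065 and 1230 FPKM in silenced cells, a difference of 4.24 ± 0.84 (adjusted p = 0.0089), or 5.54 without CPT-11 replicate 3. RN7SL3 measured 2.89, 3.06 and 15.4 FPKM against 67.1, 41.2 and 61.0 FPKM (3.14 ± 0.45, adjusted p = 0.0018) and passed in every processing. In both, CPT-11 replicate 3 was the highest of its group and below every silenced library. FTH1, which encodes ferritin heavy chain, measured 106, 73.9 and 422 FPKM against 423, 411 and 441 FPKM, replicate 3 lying at a place of 1.00. It did not pass with all libraries (1.502 ± 0.50, adjusted p = 0.052) and passed without replicate 3 (2.25, adjusted p = 0.00015).

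The median difference of the protein-coding genes of a chromosome ranged from -0.14 to 0.19 with all libraries. The lowest was chromosome 13 and the highest chromosome 19. After correction for GC content and gene length the range was -0.12 to 0.03. The low end was then the 13 mitochondrial genes, which stood at -0.12 before the correction too. Chromosome 13 was at -0.03 after it, and the lowest nuclear chromosome was 21, at -0.04.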
